A study of Homo sapiens with 30 samples.

Results

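The comparison described here sets 3 libraries of wild-type A549 cells that carry the label parts iR and D3 against 3 libraries of wild-type A549 cells that carry iR alone. These 6 libraries (iR_WTA_D3_NE and iR_WTA_NE in the labels) were taken by their column names from a series of 30 libraries in 10 groups of 3. A549 is an established human line of lung adenocarcinoma, much used in work on lung cancer. Both groups are RSRP1 wild type, both carry iR and neither was exposed to the magnetic field, so D3 is the only label part in which they differ. The labels do not spell out iR or D3, and both are kept as names. Other iR groups are used below where the D3 difference is measured a further time: wild-type cells given the magnetic exposure labelled 2 H (iR_WTA_D3_EX and iR_WTA_EX), and RSRP1 knockout cells without it (iR_KOA_D3_NE and iR_KOA_NE) or with it (iR_KOA_D3_EX and iR_KOA_EX). The labels name no clone or culture for any of these groups, and they spell out no time other than that of the exposure. Whether D3 stands for a treatment, a time or something else is not given. The words with D3 and without D3 below mean only that the label holds this part or lacks it. Nothing in them tells whether libraries of 1 group came from different cultures. The p-values therefore rest on the variation among libraries, and this may be only technical.

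Polyadenylated RNA was sequenced, and the deposited values are FPKM, fragment counts scaled by transcript length and by the mapped total of the library. Totals recovered from the steps between low values were 34620432 to 37261846 reads in the 6 libraries. RSRP1 (chromosome 1, 25242249 to 25338254 on GRCh38), an arginine- and serine-rich protein and the gene knocked out elsewhere in the series, was at 48.5, 48.6 and 49.8 FPKM without D3 and 37.4, 41.7 and 37.4 FPKM with it, and its difference was −0.33 ± 0.059 (SE, adjusted p = 5.28e-05) on the log2(FPKM + 1) scale. Over the 12 wild-type libraries of the series it held 37.4 to 63.4 FPKM and over the 18 knockout libraries 2.09 to 7.95. The 14 markers fixed for A549 cells summed to 8652 to 8743 FPKM with D3 and 7713 to 7950 without it. Markers of other cell types were low. The 11 fibroblast markers summed to 17.0 to 21.0 FPKM with 8 of them under 1 FPKM in all 6 libraries, and the 10 endothelial markers to 1.16 to 1.86 FPKM with 9 under 1. The 10 leukocyte markers in the table summed to 30.1 to 39.6 FPKM, of which CD68, a lysosomal protein that tumour cells also make, held 28.1 to 37.0.

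A proliferating cell switches its genes on in waves. E2F factors drive the genes of DNA replication, and later a complex of MYBL2 with the MuvB core, and then FOXM1, drive the genes of G2 phase and mitosis. In cells that stop dividing, the DREAM complex holds the mitotic genes down through a short promoter element, the cell cycle homology region, which often lies next to CCAAT boxes bound by NF-Y. Cholesterol and fatty acid genes are under separate control by SREBP factors, which are cut and enter the nucleus when sterols are scarce. A549 cells have features of alveolar type II epithelium, and they make acute-phase and complement proteins.

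Differences below are on the log2(FPKM + 1) scale, with D3 minus without, from limma's moderated test over all 30 libraries, with p-values adjusted by Benjamini-Hochberg over 12086 genes and a threshold of 0.05. On this scale the changes of weakly expressed genes come out too small, and FPKM are relative to each library, so a rise means a larger share of the RNA and not more molecules per cell. In bulk RNA, fewer cells of a kind and less RNA per cell cannot be told apart. With D3, 2697 genes were higher (22.3% of those tested) and 3183 lower (26.3%), with a median of −0.015 over all tested genes. These 22.3% and 26.3% are the background for the count of rises and falls in every gene list below. Under median-of-ratios scaling the split was 2898 higher and 2863 lower. Most of these differences were small: 24 of the higher and 58 of the lower genes reached an absolute difference of 1 on the log2 scale. Of those 58 genes, 33 belong to the list of G2/M and mitosis genes.

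**Figure D1:**
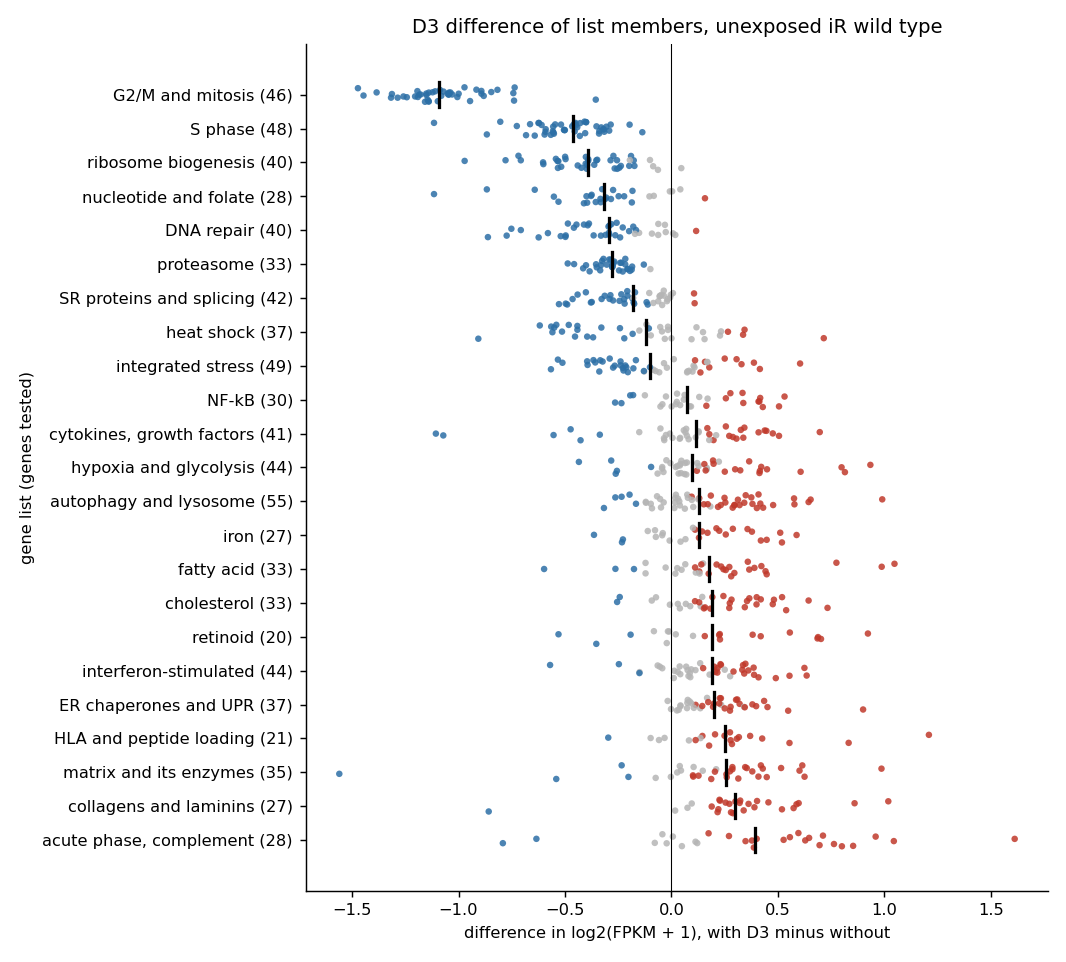
Differences in log2(FPKM + 1), with D3 minus without, of the tested members of 23 gene lists (number of genes in brackets). Each point is a gene, red where it was higher and blue where it was lower past an adjusted p of 0.05, grey where it did not pass, and the black bar is the list's median. The 46 G2/M and mitosis genes have the lowest median of these lists, −1.09, and the acute-phase and complement genes the highest, 0.39. The points of the lists overlap, and the matrix list reaches −1.56.

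The strongest pattern was a lower level of the whole mitotic programme. All 46 tested G2/M and mitosis genes fell, against 26.3% of all genes, with a median difference of −1.09 and a range from −1.47 to −0.36. Every member was lower in all 3 libraries with D3 than in all 3 without it, an order found for 32.1% of all genes. Together these genes made up 0.604% ± 0.0091 (SD, n = 3) of all FPKM without D3 and 0.287% ± 0.0032 with it (exact permutation test, two-sided, p = 0.1, the smallest that 3 against 3 libraries allow). The fall of the list kept its 46 members under every alternative listed in the closing section.

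Promoters of these genes are shown because the members moved together and many share the same promoter letters. The sequences are the last 150 bases before the transcription start in RefSeq's GRCh38.p14, 5′ to 3′ on the gene's strand. Capitals mark the cell cycle homology region (TTTGAA or TTTCGAA) and the CCAAT box, searched on both strands, so that ATTGG is a CCAAT box and TTCAAA a cell cycle homology region read on the other strand, and matches may overlap. The 6 genes are the members with the largest falls among those that hold both within these 150 bases.
DLGAP5: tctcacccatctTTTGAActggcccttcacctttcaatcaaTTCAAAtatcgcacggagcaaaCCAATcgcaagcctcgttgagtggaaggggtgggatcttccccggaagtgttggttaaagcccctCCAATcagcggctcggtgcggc
CDC20: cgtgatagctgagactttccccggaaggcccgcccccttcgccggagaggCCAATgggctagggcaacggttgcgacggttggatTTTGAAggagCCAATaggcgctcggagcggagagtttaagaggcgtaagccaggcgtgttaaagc
HMMR: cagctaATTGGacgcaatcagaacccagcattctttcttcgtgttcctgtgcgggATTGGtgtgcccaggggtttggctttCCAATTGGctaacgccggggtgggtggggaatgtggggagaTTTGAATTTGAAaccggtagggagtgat
PLK1: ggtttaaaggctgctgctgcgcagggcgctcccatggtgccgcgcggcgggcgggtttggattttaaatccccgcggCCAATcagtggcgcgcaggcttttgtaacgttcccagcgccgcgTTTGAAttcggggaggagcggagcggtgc
PRC1: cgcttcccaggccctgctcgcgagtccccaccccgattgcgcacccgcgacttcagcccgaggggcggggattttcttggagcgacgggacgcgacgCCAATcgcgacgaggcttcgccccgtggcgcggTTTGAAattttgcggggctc
CENPA: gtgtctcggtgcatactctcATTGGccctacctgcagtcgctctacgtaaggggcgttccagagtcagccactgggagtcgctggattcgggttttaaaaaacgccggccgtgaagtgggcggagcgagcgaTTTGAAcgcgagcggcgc
The windows lie at chr14:55191586-55191735 (minus strand, DLGAP5), chr1:43358831-43358980 (plus, CDC20), chr5:163460482-163460631 (plus, HMMR), chr16:23678739-23678888 (plus, PLK1), chr15:90994536-90994685 (minus, PRC1) and chr2:26785906-26786055 (plus, CENPA). In PLK1, PRC1, CENPA and HMMR a cell cycle homology region begins 18 to 29 bases before the start, and in CDC20 it begins 65 bases before it. A promoter window of 300 bases, 250 before the start and 50 after it, was at hand for 40 of the 46 genes. Of these, 28 (70.0%) held a cell cycle homology region, against 10.13% of the 9885 tested genes with a window. A CCAAT box was found in 31 (77.5%, against 36.83%) and both in 24 (60%, against 4.42%). These are descriptions of the letters and not of bound factors, and since every member of the list fell, they describe the list rather than separate its genes.

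Regulators of mitotic entry and exit were among the largest falls. KIF20A, a kinesin of the central spindle (chromosome 5, 138179112 to 138187723), was at 45.0, 44.3 and 45.8 FPKM without D3 and 15.9, 15.3 and 15.7 FPKM with it, a difference of −1.47 ± 0.055 (SE, adjusted p = 7.25e-17). DLGAP5, a spindle microtubule protein, was at 43.2, 47.8 and 42.6 FPKM without D3 and 15.9, 15.8 and 15.3 FPKM with it (−1.45 ± 0.074 SE, adjusted p = 4.27e-14). The 3 libraries with D3 lie within 1 FPKM of each other for both genes and far below the lowest library without D3. CDC20, which activates the anaphase-promoting complex (chromosome 1, 43358981 to 43363203), was at 90.6, 87.1 and 94.6 FPKM without D3 and 36.5, 36.1 and 34.9 FPKM with it, a difference of −1.32 ± 0.062 (SE, adjusted p = 8.97e-15). CCNB1, the cyclin that drives mitotic entry with CDK1, was at 157, 159 and 159.8 FPKM without D3 and 67.4, 61.7 and 64.3 FPKM with it (−1.29 ± 0.036 SE, adjusted p = 8e-19). Its partner CDK1 was at 40.1, 44.4 and 40.3 FPKM without D3 and 21.8, 20.7 and 20.7 FPKM with it (−0.95). Both are lower with D3 in every library, CCNB1 with the smaller spread relative to its change.

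The mitotic kinases and the spindle and chromosome proteins followed the same course. PLK1, the kinase of centrosome maturation and mitotic exit, was at 101, 97.1 and 107 FPKM without D3 and 42.3, 43.9 and 44.3 FPKM with it (−1.20 ± 0.051 SE, adjusted p = 7.64e-16), and NEK2, a centrosome kinase, fell by 1.31 on the log2 scale. TOP2A, which untangles sister chromatids, was at 153, 169 and 155 FPKM without D3 and 69.5, 67.4 and 70.8 FPKM with it (−1.18 ± 0.063 SE, adjusted p = 7.82e-14), and the condensin subunit NCAPG fell by 1.26. PTTG1, the securin that guards sister chromatid cohesion, fell by 1.19, UBE2C, the ubiquitin-conjugating enzyme of the anaphase-promoting complex, by 1.24, and the kinetochore motor CENPE by 1.19. MKI67, the gene of the proliferation antigen Ki-67, was at 48.9, 49.8 and 49.9 FPKM without D3 and 25.5, 24.8 and 24.0 FPKM with it (−0.97 ± 0.056 SE, adjusted p = 4.15e-13). The transcription factor FOXM1 was at 61.8, 58.9 and 63.9 FPKM without D3 and 34.4, 33.9 and 33.0 FPKM with it (−0.85 ± 0.047 SE, adjusted p = 1.85e-13), and BIRC5, the chromosomal passenger protein survivin, fell by 1.10. CDCA3 (−1.38), HMMR (−1.26), KNSTRN (−1.19) and SAPCD2 (−1.23), which also act in or around mitosis, were also among the 20 largest falls of all genes.

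**Figure D2:**
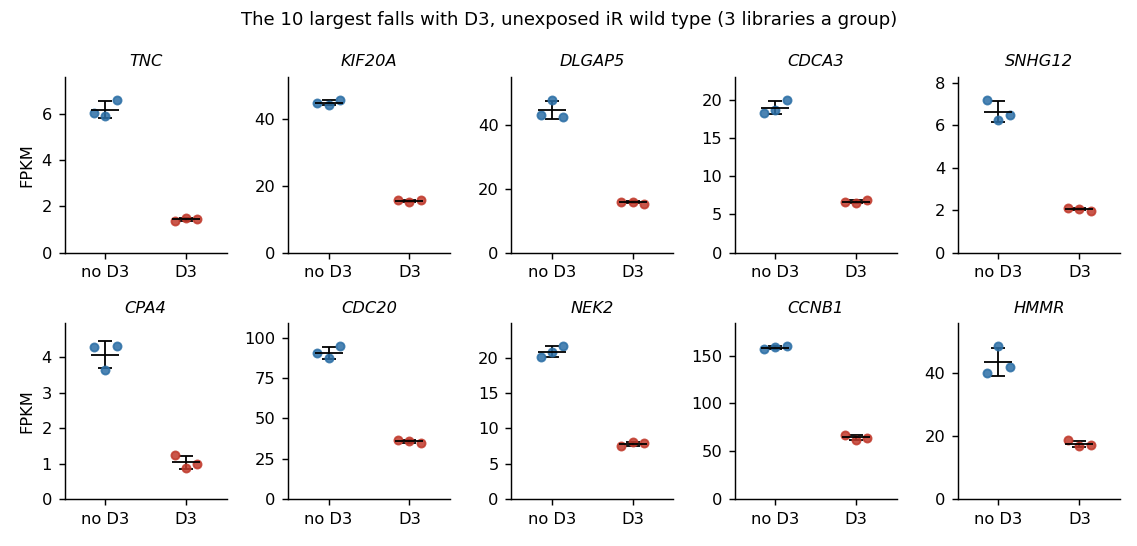
FPKM in the 3 libraries without D3 (blue) and the 3 with D3 (red) of the 10 genes with the largest falls; horizontal marks are means and bars are SD (n = 3), and each axis starts at 0. The groups do not overlap for any of the 10 genes, and KIF20A moves from 44.3 to 45.8 FPKM down to 15.3 to 15.9.

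Genes of DNA replication fell too, by less. All 48 tested S-phase genes fell, with a median of −0.46. RRM2, the small subunit of ribonucleotide reductase, was at 92.0, 99.5 and 98.4 FPKM without D3 and 42.9, 45.1 and 44.2 FPKM with it (−1.12 ± 0.057 SE, adjusted p = 3.24e-14). TYMS, thymidylate synthase, was at 109, 113 and 108 FPKM without D3 and 57.6, 60.2 and 61.7 FPKM with it (−0.87 ± 0.047 SE, adjusted p = 1.04e-13). PCNA, the sliding clamp of the replication fork, was at 299, 309.6 and 310.1 FPKM without D3 and 202, 207 and 200.1 FPKM with it (−0.59 ± 0.046 SE, adjusted p = 1.14e-10). Of the genes that build the replicative helicase, GINS4 (−0.80), GINS2 (−0.68) and CDC45 (−0.66) fell, as did the origin recognition subunit ORC6 (−0.73). E2F1, a factor that drives many of these genes, was at 16.4, 15.5 and 17.5 FPKM without D3 and 13.2, 13.7 and 12.5 FPKM with it (−0.31 ± 0.073 SE, adjusted p = 0.00117), a smaller fall than the list's median. Among 41 S-phase promoters with a window 1 (2.44%) held the cell cycle homology region that 70.0% of the mitotic promoters held, while 23 (56.1%) held a CCAAT box.

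Nucleotide synthesis and DNA repair moved with replication. Of 28 genes of nucleotide and folate metabolism, 1 rose, 22 fell and 5 did not pass, with a median difference of −0.32; this list shares RRM1, RRM2 and TYMS, among others, with the S-phase list. Its members RRM1 (−0.64) and PRPS2 (−0.53) fell. Of 40 DNA repair genes, 1 rose, 30 fell and 9 did not pass, with a median difference of −0.29. The histone variant gene H2AX, whose protein is phosphorylated at breaks, was at 75.6, 68.8 and 74.0 FPKM without D3 and 40.5, 40.8 and 37.4 FPKM with it (−0.86 ± 0.082 SE, adjusted p = 4.33e-09). Genes of the Fanconi pathway for crosslink repair fell together, FANCD2 by 0.77, FANCI by 0.75 and FANCA by 0.71, and BRCA1 fell by 0.58.

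Of 26 CDK inhibitors, pocket proteins and quiescence factors 11 rose and 10 fell, beside 22.3% and 26.3% of all tested genes. CDKN1A, the p21 inhibitor of cyclin-dependent kinases, was at 84.97, 84.7 and 85.1 FPKM without D3 and 70.4, 71.6 and 72.5 FPKM with it (−0.24 ± 0.048 SE, adjusted p = 0.00015). CDKN1C, which encodes p57, rose from a low level (0.280, 0.493 and 0.321 FPKM without D3 and 1.18, 1.48 and 0.998 FPKM with it, difference 0.70). MXD4, a MAX partner that opposes MYC, was at 11.1, 9.93 and 10.1 FPKM without D3 and 16.9, 16.9 and 16.9 FPKM with it (0.66 ± 0.064 SE, adjusted p = 5.71e-09), and TOB1 rose by 0.50, while CDKN2C, which encodes p18, fell by 0.61 and the antiproliferative gene BTG2 by 0.51. MYC was at 23.8, 23.1 and 23.6 FPKM without D3 and 21.4, 20.8 and 19.7 FPKM with it (−0.18 ± 0.059 SE, adjusted p = 0.0134), and it did not pass under quantile normalization (−0.11) or without iR_WTA_D3_NE replicate 3 (−0.15).

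Replication-dependent histone transcripts went the other way from the S-phase genes. Of 48 such genes 15 were tested, and of these 9 rose, 0 fell and 6 did not pass, with a median of 0.29. The linker histone gene H1-2 was at 17.0, 20.8 and 20.1 FPKM without D3 and 29.4, 26.7 and 25.6 FPKM with it (0.48 ± 0.08 SE, adjusted p = 2.04e-05). H2BC5 was at 7.75, 8.39 and 8.46 FPKM without D3 and 10.3, 9.99 and 11.2 FPKM with it (0.32 ± 0.06 SE, adjusted p = 8.6e-05). Most histone transcripts lack a poly(A) tail, and the library kept polyadenylated RNA, so these values cover only their polyadenylated forms. The rises of H2AC13 (0.50) and H3C10 (0.42) did not pass under several alternatives, among them without iR_WTA_D3_NE replicate 3 (0.39 and 0.27), and that of H4C8 (0.42) did not pass without iR_WTA_D3_NE replicate 2 (0.35) or iR_WTA_NE replicate 1 (0.37).

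Ribosome assembly genes fell in 35 of 40 cases and rose in 0, with a median of −0.39. NOP56, a core protein of the nucleolar particles that methylate ribosomal RNA (chromosome 20, 2652632 to 2658393), was at 149.5, 149.7 and 158 FPKM without D3 and 77.6, 77.8 and 76.4 FPKM with it (−0.97 ± 0.053 SE, adjusted p = 1.14e-13). TCOF1, which supports transcription of ribosomal RNA, fell by 0.72, LYAR by 0.78 and the assembly factor NOP16 by 0.71. Abundant nucleolar genes fell too. NCL, nucleolin, was at 224, 222 and 227 FPKM without D3 and 159, 159 and 157 FPKM with it (−0.50 ± 0.031 SE, adjusted p = 2.18e-12). NPM1, nucleophosmin, was at 675, 727 and 687 FPKM without D3 and 543, 547 and 550.0 FPKM with it (−0.35 ± 0.039 SE, adjusted p = 7.19e-08). The E-box letters CACGTG, which MYC and other factors bind, were in 10 of the 28 promoter windows of the genes that fell (35.71%). They were in 0 of the 5 windows of the other members tested, too few to compare. Among all tested genes with a window the share was 10.42%. These are letters and not bound factors. The ribosomal proteins themselves did not move as a group. Of 75, 12 rose and 8 fell, beside 22.3% and 26.3% of all tested genes. Their share of all FPKM was 10.95% ± 0.20 with D3 and 10.83% ± 0.34 without it (SD, n = 3, exact permutation p = 0.8).

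Of 33 proteasome genes 32 fell and 0 rose, with a median of −0.28 and none beyond −0.49. PSMC3, an ATPase of the regulatory particle, was at 94.0, 86.4 and 90.2 FPKM without D3 and 64.9, 62.9 and 64.4 FPKM with it (−0.49 ± 0.065 SE, adjusted p = 9.31e-07). PSMC5, another of these ATPases, was at 109, 105 and 109 FPKM without D3 and 78.9, 75.8 and 79.3 FPKM with it (−0.46 ± 0.036 SE, adjusted p = 1.95e-10). Of 42 genes of SR proteins, their kinases and related RNA-binding proteins, 2 rose, 25 fell and 15 did not pass, with a median difference of −0.18. HNRNPA2B1, an abundant RNA-binding protein, was at 304, 319 and 303 FPKM without D3 and 219, 219 and 218 FPKM with it (−0.50 ± 0.045 SE, adjusted p = 1.89e-09), and the splicing proteins LUC7L3 (−0.53), RBM25 (−0.49) and HNRNPH1 (−0.44) fell by similar amounts. Of 37 heat shock genes, 4 rose, 18 fell and 15 did not pass, with a median difference of −0.12, beside 22.3% higher and 26.3% lower among all tested genes. HSP90AA1, the inducible cytosolic HSP90, was at 614, 652 and 623 FPKM without D3 and 339.6, 334 and 332 FPKM with it (−0.91 ± 0.075 SE, adjusted p = 3.57e-10), and its co-chaperones FKBP4 (−0.56) and PTGES3 (−0.56) fell, whereas the small heat shock gene CRYAB rose from 1.26, 1.37 and 1.12 to 3.04, 2.56 and 2.50 FPKM (0.72).

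The largest falls also held genes outside the cell cycle lists. TNC, the matrix protein tenascin C (chromosome 9, 115019575 to 115118157), had the largest fall of all genes under the naming rule, from 6.04, 5.90 and 6.60 FPKM without D3 to 1.36, 1.497 and 1.45 with it (−1.56 ± 0.052 SE, adjusted p = 8.73e-18), 4.31 times lower as a ratio of means. FOSL1, the AP-1 subunit FRA1, was at 16.2, 16.5 and 18.5 FPKM without D3 and 6.83, 6.95 and 6.98 FPKM with it (−1.19 ± 0.086 SE, adjusted p = 2.89e-11). The EGF receptor ligands epiregulin (EREG, 15.9, 20.2 and 17.1 FPKM without D3 and 7.92, 7.15 and 7.92 FPKM with it, difference −1.11) and amphiregulin (AREG, 10.9, 12.5 and 12.9 FPKM without D3 and 4.83, 5.06 and 5.85 FPKM with it, difference −1.07) fell together. The Wnt antagonist SFRP1 was at 21.8, 21.6 and 22.9 FPKM without D3 and 9.02, 8.42 and 9.07 FPKM with it (−1.23 ± 0.038 SE, adjusted p = 2.3e-18). The carboxypeptidase CPA4 was at 4.30, 3.63 and 4.31 FPKM without D3 and 1.24, 0.885 and 0.973 FPKM with it (−1.32 ± 0.082 SE, adjusted p = 1.71e-12). In none of these 6 genes does a library with D3 reach the lowest library without it. The keratin KRT80 fell by 0.77, the receptor tyrosine kinase AXL by 0.59 and ANKRD1, a target of YAP, by 0.66. The non-coding host gene SNHG12 was at 7.19, 6.25 and 6.49 FPKM without D3 and 2.12, 2.05 and 1.98 FPKM with it (−1.32 ± 0.11 SE, adjusted p = 3.44e-10).

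The largest rises were in genes with various roles. LBP, the acute-phase protein that binds bacterial lipopolysaccharide (chromosome 20, 38346482 to 38377013), was at 1.29, 1.71 and 1.748 FPKM without D3 and 6.87, 7.39 and 6.39 FPKM with it, a difference of 1.61 ± 0.095 (SE, adjusted p = 5.56e-13) and 4.35 times the mean level without D3. BMF, a BH3-only protein that promotes apoptosis (chromosome 15, 40087890 to 40108879), was at 0.459, 0.457 and 0.485 FPKM without D3 and 3.28, 3.50 and 3.21 FPKM with it (1.56 ± 0.058 SE, adjusted p = 7.25e-17), which is 7.13 times the mean without D3. HDAC5, a class IIa histone deacetylase, was at 2.09, 1.74 and 1.76 FPKM without D3 and 5.95, 6.198 and 6.18 FPKM with it (1.31 ± 0.064 SE, adjusted p = 1.66e-14). For all 3 genes the groups lie far apart. PIK3IP1, an inhibitor of PI3 kinase, was at 0.888, 0.807 and 0.875 FPKM without D3 and 3.16, 3.31 and 3.49 FPKM with it (1.22 ± 0.06 SE, adjusted p = 1.92e-14). The monoamine transporter gene SLC29A4 was at 4.04, 3.80 and 3.90 FPKM without D3 and 10.5, 11.3 and 10.4 FPKM with it (1.26 ± 0.075 SE, adjusted p = 6.74e-13). The bradykinin receptor gene BDKRB2 was at 6.48, 5.72 and 5.85 FPKM without D3 and 15.0, 15.1 and 14.1 FPKM with it (1.17 ± 0.058 SE, adjusted p = 1.97e-14). These too are higher with D3 in every library.

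Of the 20 largest rises, that of SLC25A6 rests on a single library. SLC25A6, a mitochondrial ADP/ATP carrier, was at 3.91, 3.64 and 4.42 FPKM without D3 and 5.40, 6.21 and 45.7 FPKM with it, a difference of 1.38 ± 0.5 (SE, adjusted p = 0.025). Without iR_WTA_D3_NE replicate 3 it was 0.45 and did not pass (adjusted p = 0.358), and without iR_WTA_NE replicate 1 (1.37) or 2 (1.33) it did not pass either. Further rises of 1 or more on the log2 scale that the naming rule picked were the ribonuclease RNASE4 (1.25), QPRT of NAD synthesis (1.12), CACNG6 (1.09), the nuclear receptor NR4A1 (1.05), ACSS2 (1.05), RAB26 (1.04), PLA1A (1.03) and DIPK1B (1.03), besides those given with their lists below. RNASE4 shares its locus with ANG, so its reads may not all be its own.

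**Figure D3:**
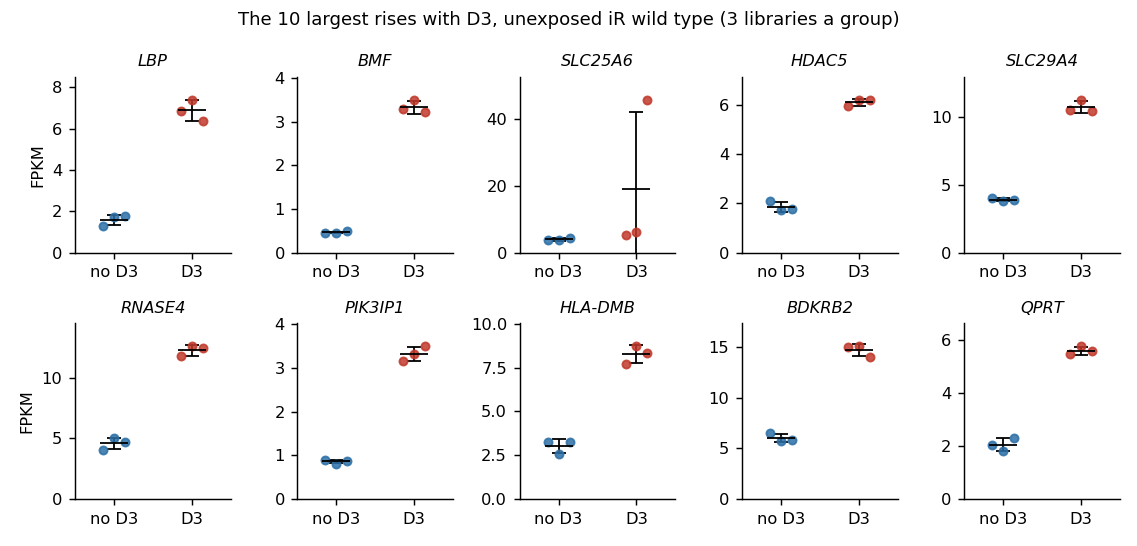
FPKM in the 3 libraries without D3 (blue) and the 3 with D3 (red) of the 10 genes with the largest rises; horizontal marks are means and bars are SD (n = 3), and each axis starts at 0. The groups do not overlap, but in SLC25A6 a single library at 45.7 FPKM sets the mean while the other 2 libraries with D3 are at 5.40 and 6.21.

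Acute-phase, complement and coagulation genes had the highest median of all lists. Of 28, 19 rose, 2 fell and 7 did not pass, with a median difference of 0.39, against 22.3% higher among all genes. C3, the central complement component, was at 40.3, 39.0 and 39.3 FPKM without D3 and 82.8, 83.5 and 81.7 FPKM with it (1.04 ± 0.05 SE, adjusted p = 1.08e-14). The proteases that start the classical pathway rose together, C1R at 32.0, 30.1 and 32.3 FPKM without D3 and 60.8, 65.9 and 59.9 FPKM with it (0.96 ± 0.05 SE, adjusted p = 5.32e-14). C1S was at 28.6, 27.4 and 27.4 FPKM without D3 and 49.96, 52.7 and 50.5 FPKM with it (0.85 ± 0.036 SE, adjusted p = 1.15e-15). All 3 libraries with D3 are above all 3 without it in C3, C1R and C1S. FGA, the fibrinogen alpha chain, rose from 3.45, 2.92 and 3.10 to 5.78, 6.58 and 6.37 FPKM (0.80 ± 0.047 SE, adjusted p = 5.14e-13), whereas TFPI2, an inhibitor of tissue factor proteases, fell from 22.8, 23.0 and 23.3 to 13.7, 12.6 and 12.5 FPKM (−0.79 ± 0.069 SE, adjusted p = 8.85e-10). CP, the copper carrier ceruloplasmin, rose by 0.38.

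Antigen presentation and interferon-stimulated genes rose more modestly. Of 21 HLA and peptide-loading genes, 15 rose, 1 fell and 5 did not pass, with a median difference of 0.25. The class II chaperone genes HLA-DMB (3.24, 2.58 and 3.23 FPKM without D3 and 7.72, 8.71 and 8.36 FPKM with it, difference 1.21) and HLA-DMA (3.50, 4.05 and 3.39 FPKM without D3 and 7.71, 6.73 and 7.37 FPKM with it, difference 0.83) rose most. TAPBP, which helps to load class I molecules, was at 28.1, 28.0 and 27.2 FPKM without D3 and 40.3, 41.1 and 42.4 FPKM with it (0.55 ± 0.047 SE, adjusted p = 5.96e-10). HLA-E rose by 0.37 and HLA-C by 0.32; reads of these closely related genes may have been exchanged. Of 44 interferon-stimulated genes, 20 rose, 3 fell and 21 did not pass, with a median difference of 0.19, and 11 rose among the 25 members that reached a minimum of 5 FPKM. STAT2, part of the factor that reads type I interferon signals, was at 7.4, 6.94 and 7.38 FPKM without D3 and 11.7, 12.0 and 11.7 FPKM with it (0.64 ± 0.055 SE, adjusted p = 7.3e-10). APOL1 was at 4.43, 4.22 and 3.84 FPKM without D3 and 6.52, 7.69 and 6.70 FPKM with it (0.62 ± 0.082 SE, adjusted p = 7.83e-07). GBP2 was at 1.11, 1.11 and 1.30 FPKM without D3 and 2.30, 2.28 and 2.01 FPKM with it (0.55), whereas the 2′-5′ oligoadenylate synthetase OAS3 fell from 23.4, 22.8 and 23.0 to 15.0, 15.2 and 15.5 FPKM (−0.57 ± 0.038 SE, adjusted p = 6.69e-12).

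The promoters of 4 interferon-stimulated genes that rose are shown, the largest rises that hold the interferon-stimulated element, TTTCNNTTT on either strand, within the 150 bases before the start. Capitals mark the element, whichever strand it was read on.
IFITM3: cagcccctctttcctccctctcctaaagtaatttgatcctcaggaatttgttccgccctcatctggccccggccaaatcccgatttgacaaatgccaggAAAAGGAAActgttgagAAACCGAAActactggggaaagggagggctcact
DDX58: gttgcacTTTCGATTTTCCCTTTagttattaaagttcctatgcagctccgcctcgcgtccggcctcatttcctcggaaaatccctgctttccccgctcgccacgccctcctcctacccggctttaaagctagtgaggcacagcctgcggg
GBP1: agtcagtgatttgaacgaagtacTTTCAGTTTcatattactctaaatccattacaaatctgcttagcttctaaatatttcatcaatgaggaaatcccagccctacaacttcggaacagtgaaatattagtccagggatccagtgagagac
TRIM5: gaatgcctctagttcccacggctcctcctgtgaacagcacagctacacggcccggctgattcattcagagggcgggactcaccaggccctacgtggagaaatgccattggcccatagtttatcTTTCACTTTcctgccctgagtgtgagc
The windows lie at chr11:320861-321010 (minus strand, IFITM3), chr9:32526197-32526346 (minus, DDX58), chr1:89065209-89065358 (minus, GBP1) and chr11:5685075-5685224 (minus, TRIM5). IFITM3, which blocks viral entry, was at 12.9, 10.4 and 12.6 FPKM without D3 and 16.1, 17.2 and 18.2 FPKM with it (0.49 ± 0.13 SE, adjusted p = 0.0034). DDX58, the RNA sensor RIG-I, was at 6.88, 7.71 and 6.56 FPKM without D3 and 10.2, 9.27 and 9.58 FPKM with it (0.41 ± 0.075 SE, adjusted p = 7.35e-05). The element stood in the 300-base windows of 10 of the 13 genes that rose (76.92%) and of 16 of the 20 other members tested (80.0%), against 6.96% of all tested genes with a window. The share was thus similar in members that rose and in the others.

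Among inflammatory genes the changes were mixed. Of 30 NF-kB genes, 11 rose, 4 fell and 15 did not pass, with a median difference of 0.07, beside 22.3% higher and 26.3% lower among all tested genes. SOD2, the mitochondrial superoxide dismutase, was at 6.11, 6.43 and 5.89 FPKM without D3 and 9.09, 9.09 and 9.22 FPKM with it (0.51 ± 0.048 SE, adjusted p = 4.21e-09), PTGS2, the inducible prostaglandin synthase, rose by 0.43, NFKBIA, the inhibitor of NF-kB, by 0.41 and IRAK2 by 0.53. Of 41 cytokines, chemokines and growth factors, 16 rose, 6 fell and 19 did not pass, with a median difference of 0.11. The chemokine gene CXCL5 was at 57.4, 66.0 and 59.5 FPKM without D3 and 86.1, 88.3 and 86.1 FPKM with it (0.51 ± 0.058 SE, adjusted p = 9e-08) and midkine (MDK) at 10.2, 9.29 and 8.35 FPKM without D3 and 15.7, 16.0 and 15.2 FPKM with it (0.70 ± 0.089 SE, adjusted p = 5.18e-07), against the falls of EREG and AREG above and of CCN3 (−0.55). STAT3 rose by 0.28 and the receptor IL4R by 0.44.

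Junction genes were among the 20 largest rises. CDH1, E-cadherin (chromosome 16, 68737292 to 68835537), was at 20.6, 20.2 and 18.5 FPKM without D3 and 43.4, 45.5 and 43.2 FPKM with it (1.12 ± 0.043 SE, adjusted p = 1.21e-16), and JUP, the junction protein plakoglobin (chromosome 17, 41754609 to 41786711), at 24.8, 22.5 and 22.6 FPKM without D3 and 50.1, 49.8 and 49.5 FPKM with it (1.06 ± 0.058 SE, adjusted p = 1.04e-13). Their means were 2.23 and 2.14 times those without D3. The list of cadherins, junction proteins and keratins did not move as a whole: of 28, 12 rose, 6 fell and 10 did not pass, with a median difference of 0.11, with the falls of KRT80 above and of CEACAM6, from 74.2, 75.5 and 72.6 to 50.5, 53.9 and 51.5 FPKM (−0.50). The list of mesenchymal genes did not move as a whole either. Of 21, 6 rose, 4 fell and 11 did not pass, with a median of 0.006, beside 22.3% and 26.3% of all tested genes. Among markers of mesenchymal change, the filament gene VIM fell from 935, 939 and 969 to 729, 723 and 716 FPKM (−0.39 ± 0.031 SE, adjusted p = 2.17e-10) and AXL fell as given above, while the factor SNAI1, which represses CDH1, rose from 1.37, 1.47 and 1.47 to 3.20, 2.59 and 2.93 FPKM (0.68 ± 0.072 SE, adjusted p = 2.75e-08) and MMP2 rose by 0.52.

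Of 27 collagen and laminin genes, 23 rose, 1 fell and 3 did not pass, with a median difference of 0.30. COL11A1, a fibrillar collagen, was at 14.2, 13.3 and 13.3 FPKM without D3 and 29.5, 27.7 and 28.6 FPKM with it (1.02 ± 0.039 SE, adjusted p = 1.21e-16). The paired basement membrane chains COL4A1 (9.52, 9.06 and 9.01 FPKM without D3 and 14.7, 13.9 and 14.7 FPKM with it, difference 0.60) and COL4A2 (53.3, 48.8 and 50.4 FPKM without D3 and 75.2, 75.5 and 77.8 FPKM with it, difference 0.57) rose by nearly the same amount, as did the fibrillar chain COL5A1 (0.59). NID2, a linker of laminin and collagen IV, rose by more (0.86). Of 35 other matrix proteins and enzymes, 23 rose, 4 fell and 8 did not pass, with a median difference of 0.26. SPARC, a collagen-binding protein, was at 1.56, 2.04 and 2.15 FPKM without D3 and 4.79, 4.94 and 4.56 FPKM with it (0.99 ± 0.059 SE, adjusted p = 6.82e-13). FBN1, fibrillin 1, was at 3.44, 3.48 and 3.35 FPKM without D3 and 5.88, 5.73 and 5.72 FPKM with it (0.61 ± 0.05 SE, adjusted p = 3.16e-10), while MMP7 fell from 40.7, 40.3 and 37.4 to 26.9, 26.0 and 27.4 FPKM (−0.54 ± 0.043 SE, adjusted p = 1.61e-10) and TNC fell as given above. Of 15 integrin genes 9 rose and 1 fell, none by more than 0.48.

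Genes of lipid synthesis rose. SCD, the desaturase that makes oleate (chromosome 10, 100347233 to 100364826), was at 960.1, 946 and 930.4 FPKM without D3 and 1914, 1859 and 1856 FPKM with it (0.99 ± 0.031 SE, adjusted p = 3.12e-18), a change of 1.98 times in a gene that was already abundant. ACSS2, which makes acetyl-CoA from acetate, was at 10.1, 9.01 and 8.93 FPKM without D3 and 20.5, 20.7 and 19.9 FPKM with it (1.05 ± 0.056 SE, adjusted p = 9.82e-14). Its level was low beside that of SCD, but the relative rise was alike. ACSL1, which activates fatty acids, was at 16.9, 16.1 and 14.9 FPKM without D3 and 29.5, 27.4 and 27.0 FPKM with it (0.78 ± 0.038 SE, adjusted p = 2.04e-14). FASN, fatty acid synthase, was at 102, 91.5 and 94.3 FPKM without D3 and 128, 129 and 134 FPKM with it (0.44 ± 0.062 SE, adjusted p = 2.05e-06). The libraries with D3 are the higher in each of these 4 genes. Of 33 fatty acid and lipid genes, 20 rose, 3 fell and 10 did not pass, with a median difference of 0.18. The fatty acid carrier FABP5 fell, from 93.2, 93.4 and 95.2 to 62.2, 59.9 and 63.2 FPKM (−0.60 ± 0.061 SE, adjusted p = 1.23e-08).

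Of 33 genes of cholesterol synthesis, uptake and control, 22 rose, 2 fell and 9 did not pass, with a median difference of 0.19. FDPS, farnesyl diphosphate synthase, was at 122, 113 and 118 FPKM without D3 and 118, 113 and 119 FPKM with it (−0.01 ± 0.045 SE, adjusted p = 0.911) and did not pass the threshold. LSS, which closes the sterol ring, was at 20.7, 20.0 and 20.6 FPKM without D3 and 32.6, 31.7 and 33.1 FPKM with it (0.64 ± 0.055 SE, adjusted p = 6.86e-10). DHCR7, the last step to cholesterol, was at 80.8, 76.8 and 81.4 FPKM without D3 and 118, 113 and 114 FPKM with it (0.52 ± 0.041 SE, adjusted p = 1.61e-10). TM7SF2 was at 15.1, 15.3 and 15.7 FPKM without D3 and 22.0, 24.6 and 21.9 FPKM with it (0.54 ± 0.086 SE, adjusted p = 1.26e-05). The groups do not overlap in LSS, DHCR7 and TM7SF2, and all 3 rose. The control factors SREBF2 (0.40) and SREBF1 (0.42) rose, as did the cholesterol exporters ABCA1 (0.48) and ABCG1 (0.48). The 2 members that fell were EBP (−0.25) and PMVK (−0.24).

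The promoter of SREBF2 is shown since it was the only 1 of the 16 windows of genes of this list that rose to hold the letters of the classical sterol element, TCACCCCAC, found in 0.38% of all tested genes with a window. Capitals mark the element, 133 bases before the start.
SREBF2: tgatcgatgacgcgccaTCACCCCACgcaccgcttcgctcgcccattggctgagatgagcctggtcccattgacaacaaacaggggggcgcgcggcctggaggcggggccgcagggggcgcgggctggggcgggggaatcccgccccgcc
The window is chr22:41832955-41833104 on the plus strand of GRCh38.p14. SREBF2 itself was at 23.2, 21.4 and 20.5 FPKM without D3 and 28.1, 29.1 and 29.6 FPKM with it (0.40 ± 0.05 SE, adjusted p = 3.85e-07). This search used 1 exact form of the element, and no match says only that these letters are not in the window.

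**Figure D4:**
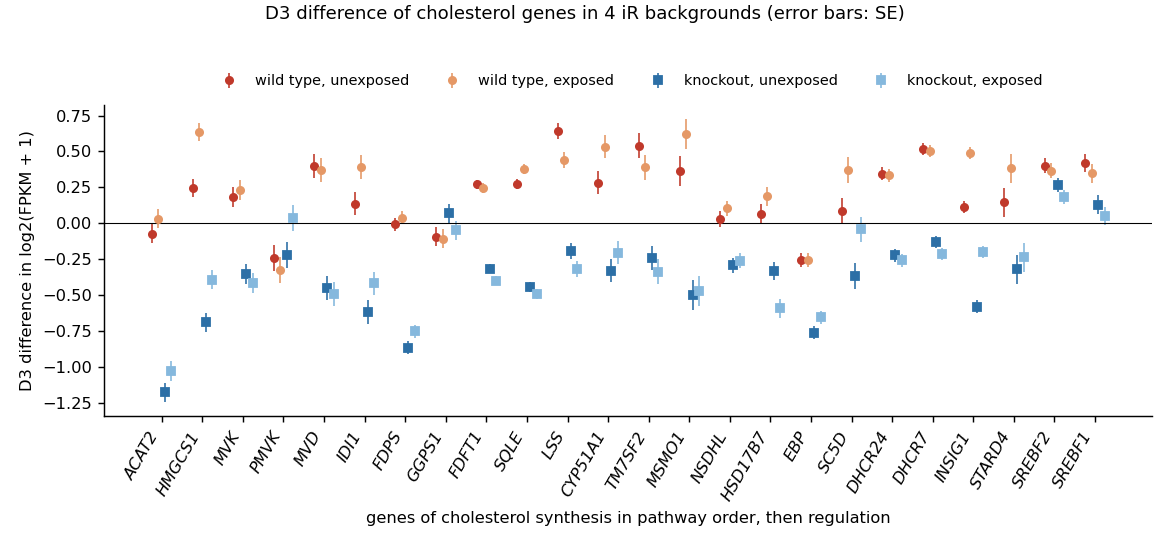
Difference in log2(FPKM + 1), with D3 minus without, of 24 cholesterol genes in 4 iR backgrounds; points are fitted differences and bars are SE, red and orange for wild type, dark and light blue for the RSRP1 knockout. In the unexposed wild type HMGCS1 stands at 0.24 and in the unexposed knockout at −0.69, and most other genes show the same split by genotype.

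Many genes of the secretory pathway and the lysosome rose. Of 37 endoplasmic reticulum chaperones and genes of the unfolded protein response, 21 rose, 0 fell and 16 did not pass, with a median difference of 0.20. XBP1, the transcription factor of this response, was at 24.7, 24.2 and 23.4 FPKM without D3 and 44.7, 48.0 and 45.0 FPKM with it (0.90 ± 0.086 SE, adjusted p = 4.71e-09). The chaperone HSPA5 was at 141, 139 and 141 FPKM without D3 and 188, 186 and 183 FPKM with it (0.40 ± 0.11 SE, adjusted p = 0.00379). The coat protein SEC24D was at 9.67, 10.1 and 9.89 FPKM without D3 and 15.3, 14.6 and 14.9 FPKM with it (0.55 ± 0.045 SE, adjusted p = 3.78e-10). The libraries with D3 are the higher in all 3 genes. CCAAT boxes stood in 16 of the 19 promoter windows of the genes that rose (84.21%) and in 12 of the 15 of the other members tested (80.0%), against 36.83% of all tested genes with a window. Of 55 autophagy and lysosome genes, 28 rose, 5 fell and 22 did not pass, with a median difference of 0.13. MAP1LC3A was at 2.78, 2.34 and 2.84 FPKM without D3 and 6.68, 6.07 and 6.02 FPKM with it (0.99 ± 0.11 SE, adjusted p = 3.32e-08). GABARAPL1, of the same family of autophagosome proteins, was at 9.93, 9.15 and 9.09 FPKM without D3 and 14.6, 15.2 and 16.2 FPKM with it (0.65 ± 0.062 SE, adjusted p = 4.24e-09). The lysosomal protease CTSD was at 529.7, 506 and 509 FPKM without D3 and 763, 784 and 759.8 FPKM with it (0.58 ± 0.054 SE, adjusted p = 3.4e-09). These groups do not overlap either. ULK1, the kinase that starts autophagy, rose by 0.58. BNIP3L, a mitophagy receptor of the BCL2 family, was at 16.9, 19.5 and 17.9 FPKM without D3 and 32.7, 32.2 and 32.8 FPKM with it (0.82 ± 0.073 SE, adjusted p = 1.47e-09).

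Of 49 integrated stress genes, 10 rose, 24 fell and 15 did not pass, with a median difference of −0.10. Among all tested genes 22.3% rose and 26.3% fell, so the share that rose was near that of all genes. PSAT1, of serine synthesis, was at 81.5, 86.9 and 80.6 FPKM without D3 and 59.9, 53.2 and 54.3 FPKM with it (−0.57 ± 0.057 SE, adjusted p = 1.21e-08), and ATF5 (−0.53), DDIT3, which encodes CHOP (−0.51), and MTHFD2 of mitochondrial folate metabolism (−0.40) fell. TRIB3, a CHOP target and feedback inhibitor, went the other way, at 59.6, 54.0 and 59.6 FPKM without D3 and 87.7, 88.0 and 89.0 FPKM with it (0.60 ± 0.07 SE, adjusted p = 1.14e-07), and so did DDIT4, an inhibitor of mTORC1 (0.42). Of 44 hypoxia and glycolysis genes, 17 rose, 5 fell and 22 did not pass, with a median difference of 0.10. ALDOC, an aldolase, was at 4.47, 4.01 and 4.51 FPKM without D3 and 7.97, 10.7 and 9.01 FPKM with it (0.93 ± 0.11 SE, adjusted p = 9.33e-08). NDRG1 was at 3.85, 4.26 and 3.59 FPKM without D3 and 6.45, 9.38 and 6.97 FPKM with it (0.80 ± 0.097 SE, adjusted p = 2.03e-07). Of 27 iron genes 15 rose and 3 fell, among them ACO1, the iron-sensing RNA-binding protein, at 27.1, 26.0 and 27.3 FPKM without D3 and 40.2, 40.4 and 41.8 FPKM with it (0.59 ± 0.03 SE, adjusted p = 5e-14), and the iron exporter SLC40A1 (0.51). Of 20 retinoid genes 11 rose and 3 fell, and the rises were 7 without iR_WTA_D3_NE replicate 1 or without replicate 2. TGM2, the tissue transglutaminase, was at 42.6, 38.2 and 43.9 FPKM without D3 and 78.8, 80.5 and 79.3 FPKM with it (0.92 ± 0.05 SE, adjusted p = 1.04e-13), and the reductase DHRS3 (0.69) and the retinol receptor STRA6 (0.56) rose.

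Of the 13 mitochondrially encoded genes 4 rose and 0 fell, beside 22.3% and 26.3% of all tested genes. With no filter on low values 0 passed. Quantile normalization gives the top ranks the same values in every library, so it cannot test the most abundant of these genes. COX1 was at 13998, 13964 and 14417 FPKM without D3 and 17464, 17866 and 17313 FPKM with it (0.31 ± 0.058 SE, adjusted p = 7.29e-05). The 13 genes held 22.9% ± 0.43 of all FPKM with D3 and 21.1% ± 1.1 without it (SD, n = 3), and the 3 libraries with D3 were above the 3 without it (exact permutation p = 0.1, the smallest possible). Of 73 nuclear respiratory chain genes 3 rose and 18 fell, with a median of −0.04, beside 22.3% and 26.3% of all tested genes. The share that fell was thus near that of all genes. Under quantile normalization the counts turned to 18 rises and 12 falls. CYCS, cytochrome c, was at 44.9, 52.9 and 47.3 FPKM without D3 and 34.0, 33.4 and 35.8 FPKM with it (−0.48 ± 0.08 SE, adjusted p = 2.41e-05).

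The D3 difference was measured again in wild-type cells that had the magnetic exposure, in 6 libraries outside the groups compared above. These libraries had entered the shared fit, and so the spread behind the p-values above. With only the compared groups fitted, 1630 genes were higher and 2374 lower. In the shared fit 2422 genes were higher (20.0%) and 3309 lower (27.4%). These counts were 2994 and 2645 under median-of-ratios scaling and 2830 and 2679 under quantile normalization. Of the 2697 genes higher in the unexposed cells 68.0% were higher again and 0.59% were lower. Of the 3183 lower genes 75.4% were lower again and 0.47% were higher. All 46 mitotic and all 48 S-phase genes fell there too, with medians of −0.94 and −0.52, and of the 33 cholesterol genes 26 rose and 2 fell. Across genes, which are not independent replicates, the D3 differences without and with exposure correlated at r = 0.845 (12086 genes).

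Whether the D3 difference changed with the exposure was tested as an interaction. It was higher in exposed cells for 91 genes (0.753%) and lower for 111 (0.918%), and with median-of-ratios scaling for 128 and 76. This count was unstable, at 202 genes in all but 52 with only the 4 compared groups fitted, 506 without iR_WTA_D3_EX replicate 2 and 88 to 128 without any 1 of 8 other libraries, named in the closing section. BHLHE40, a circadian repressor that hypoxia also induces, was at 45.9, 44.6 and 45.3 FPKM without D3 and 60.9, 62.4 and 62.0 FPKM with it in unexposed cells, a rise of 0.44. In exposed cells it fell from 97.1 ± 2 to 73.2 ± 3.6 FPKM (SD, n = 3), and the interaction was −0.84 ± 0.046 (SE, adjusted p = 1.06e-11). SOCS3, an inhibitor of cytokine signalling, rose by 0.30 in unexposed cells and fell by 0.80 in exposed cells (interaction −1.10 ± 0.12 SE, adjusted p = 3.91e-06), and the phosphatase gene DUSP1 rose by 0.41 and fell by 0.23 (−0.64 ± 0.058 SE, adjusted p = 1.81e-07). BTG2 went from a fall of 0.51 to a rise of 0.38 (0.89 ± 0.15 SE, adjusted p = 0.00167). HSPA6, the strictly inducible HSP70, was at 0.0230, 0 and 0.0344 FPKM without D3 and 0.0114, 0 and 0.0123 FPKM with it in unexposed cells and fell from 19.0 ± 2.4 to 6.81 ± 1.6 FPKM in exposed cells. For BMF the interaction was −1.10 ± 0.082 (SE, adjusted p = 4.37e-09) on this scale. With a pseudocount of 0.1 it was −0.76 and did not pass (adjusted p = 0.129). On the log2 scale of reads, with voom weights, it was 0.39 (adjusted p = 0.715). In exposed cells BMF was at 0.0580 ± 0.041 FPKM without D3 and 0.458 ± 0.12 with it.

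In the RSRP1 knockout the D3 difference was larger in number and partly different in kind. Of the 12086 genes 2315 were higher (19.2%) and 4170 lower (34.5%) in unexposed knockout cells, and 3344 and 2953 under median-of-ratios scaling, 3272 and 3039 under quantile normalization. Of the genes lower in the wild type 81.02% were lower again, and of those higher 57.95% were higher again and 6.01% were lower. Across genes the correlation of the D3 differences in the 2 genotypes was 0.751, with no library in common. The difference between genotypes, knockout minus wild type, was positive for 627 genes (5.19%) and negative for 1492 (12.3%), or 1052 and 940 under median-of-ratios scaling and 967 and 1085 under quantile normalization.

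The mitotic genes fell in both genotypes, and most replication genes fell further in the knockout. The G2/M median was −1.26 in the knockout against −1.09 in the wild type, and 16 of the 46 genes differed downward and 1 upward by the interaction test. The downward count was 7 under median-of-ratios scaling, 9 with no filter on low values and 21 with a pseudocount of 0.1. CCNB1 changed by −1.28 and −1.29, and the interaction did not pass (adjusted p = 0.968, SE 0.052). KIF20A was the member that fell less in the knockout (−1.05, interaction 0.42 ± 0.077 SE, adjusted p = 0.000289). The S-phase median was −1.12 against −0.46, and 47 of the 48 genes fell further in the knockout past the interaction test, with medians of the interaction from −0.69 to −0.52 over the alternatives other than leaving out libraries. E2F1 fell from 18.2 ± 1.1 to 7.20 ± 0.35 FPKM in the knockout (SD, n = 3), a difference of −1.22 against −0.31 in the wild type (interaction −0.92 ± 0.1 SE, adjusted p = 3.63e-07), and ORC6 by −1.73 against −0.73 (interaction adjusted p = 8.22e-08).

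**Figure D5:**
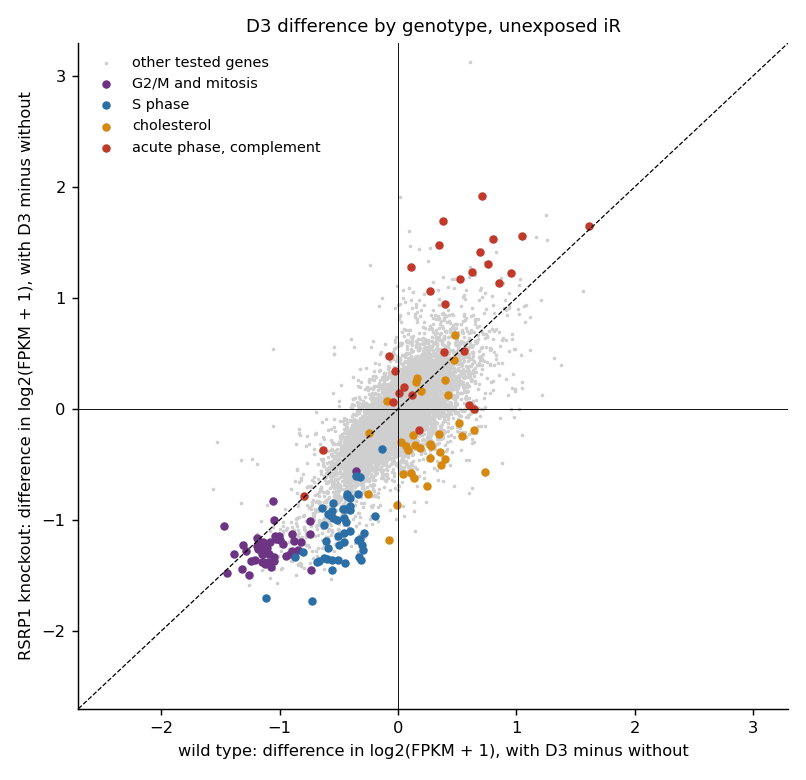
D3 difference in log2(FPKM + 1) of each tested gene in unexposed wild-type (x) and RSRP1 knockout cells (y); colours mark 4 gene lists and the dashed line marks equal differences. Mitotic genes lie near the line, S-phase genes below it with medians of −0.46 and −1.12, most cholesterol genes right of 0 on x and below 0 on y, and most acute-phase genes above the line.

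Cholesterol genes went in opposite directions. The 33 genes that had 22 rises and 2 falls in the wild type had 6 rises and 25 falls in the knockout, with a median of −0.32, and 25 of the 33 had a lower D3 difference in the knockout past the interaction test while 0 had a higher one (1 under median-of-ratios scaling or quantile normalization). In the exposed knockout, where 2192 of all genes were higher (18.1%) and 4127 lower (34.1%), or 3193 and 2878 under median-of-ratios scaling and 3089 and 2954 under quantile normalization, 5 of the 33 rose and 22 fell. HMGCS1, an early synthase of the pathway, was at 31.8 ± 2 FPKM without D3 and 19.3 ± 0.95 with it in the knockout (SD, n = 3). It changed by −0.69 against 0.24 (−0.93 ± 0.091 SE, adjusted p = 3.55e-08), and ACAT2, the first enzyme of the pathway, by −1.18 against −0.07 (−1.10 ± 0.095 SE, adjusted p = 4.76e-09). FASN followed, with −0.51 against 0.44 (−0.95 ± 0.088 SE, adjusted p = 1.6e-08), and the rise of SCD in the knockout was only 0.16 (−0.83 ± 0.044 SE, adjusted p = 2.31e-12).

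COL4A1 and COL4A2 both fell by 0.46 in the knockout, with interactions of −1.06 ± 0.06 (SE, adjusted p = 4.68e-12) and −1.03 ± 0.071 (SE, adjusted p = 1.34e-10), and COL11A1 did not pass in the knockout (0.00, interaction −1.02 ± 0.055 SE, adjusted p = 2.52e-12). Of 27 collagens and laminins 14 had a lower and 5 a higher D3 difference in the knockout. This split was 10 lower and 9 higher under median-of-ratios scaling and 12 lower and 7 higher under quantile normalization. Of 49 integrated stress genes 32 had a lower and 2 a higher one. ATF4, the factor of that response, changed by −0.92 in the knockout against 0.14 in the wild type (−1.06 ± 0.079 SE, adjusted p = 4.04e-10), and TRIB3 by −0.76 against 0.60 (−1.36 ± 0.1 SE, adjusted p = 3.53e-10). The small wild-type rise of ATF4 did not pass when any 1 of the 6 libraries was left out (0.10 to 0.15). It also did not pass with no filter on low values or with no trend. OLFML2A, an olfactomedin-like matrix protein, changed by −0.71 against 0.63 (−1.34 ± 0.083 SE, adjusted p = 2.4e-11).

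Acute-phase genes rose more in the knockout. Their median was 1.00 against 0.39, and 17 of 28 had a higher and 3 a lower D3 difference past the interaction test. CP rose from 13.5 ± 0.9 to 46.0 ± 2.2 FPKM in the knockout, 1.69 against 0.38 (1.32 ± 0.1 SE, adjusted p = 7.46e-10). LBP rose by 1.65 and 1.61, with an interaction of 0.04 ± 0.13 (SE, adjusted p = 0.901). The secreted antimicrobial proteins LCN2 and SLPI rose in the knockout, by 1.30 and 1.60. In the wild type LCN2 was at 10.6, 10.4 and 9.66 FPKM without D3 and 7.49, 9.69 and 8.59 FPKM with it (−0.23 ± 0.089 SE, adjusted p = 0.0327), a fall that did not pass under 8 alternatives. SLPI was at 7.14, 5.73 and 4.58 FPKM without D3 and 5.76, 6.92 and 5.91 FPKM with it and did not pass, and the groups overlap in both genes. CA9, the hypoxia-induced carbonic anhydrase, had the largest genotype difference of the named genes. It was at 0.912, 0.743 and 0.630 FPKM without D3 and 1.22, 2.42 and 1.53 FPKM with it in the wild type (0.61) and went from 0.889 ± 0.17 to 15.6 ± 2.6 FPKM in the knockout (interaction 2.52 ± 0.2 SE, adjusted p = 7.52e-10). CDH1 rose less in the knockout, by 0.53 (−0.58 ± 0.061 SE, adjusted p = 1.08e-07), as did HDAC5, by 0.46 (−0.86 ± 0.091 SE, adjusted p = 1.44e-07), and the fall of TNC was smaller there, −0.72 (0.84 ± 0.073 SE, adjusted p = 5.71e-09).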

How the data were processed

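RNA of A549 cells was extracted with TRIzol, selected with oligo(dT) and sequenced in pairs, per the labels' protocols. GRCh38 and the tools fastp, HISAT2 and HTSeq stand in the submitters' processing notes, without versions; the annotation used for counting is not stated there. The values are FPKM as the authors deposited them, 1 column per library; 6 further columns matched no sample and were not used. The low FPKM values of all 25991 genes above 0 were whole multiples of a step (tolerance 0.01), which gave reads per library. Gene positions and promoter windows are from RefSeq GRCh38.p14.

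From the deposited FPKM, log2(FPKM + 1) was computed and fitted with limma 3.58.1 (R 4.3.3) as 10 group means over 30 libraries, with a mean-variance trend and 20 residual degrees of freedom. A gene was tested if 3 or more libraries held 1 FPKM or more (12086 of 26801 genes). The Benjamini-Hochberg adjustment ran over all tested genes. The D3 difference in each of 4 iR backgrounds and 2 interactions made 6 comparisons. Named genes are RSRP1, the 20 largest rises and falls among genes past the threshold with 2 FPKM or more in a group and no overlap of groups, up to 6 members of each gene list, 6 interaction genes in each direction, and 26 genes chosen after their values were seen. Some genes that this rule picked are not reported here. The members and the lists were chosen with earlier results of these data known. Alternatives were a pseudocount of 0.1, no filter, a filter at 5 FPKM, median-of-ratios scaling, quantile normalization, only the compared groups, a replicate block, no trend, leaving out each library, and voom on the recovered reads.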

Additional observations from a re-analysis of the deposited data

Results flagged for a closer look

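Genes whose D3 difference depended on a second label are listed here, chosen because the test of the difference itself passed an adjusted p of 0.05 (limma's moderated test over 12086 genes). Values are differences of differences in log2(FPKM + 1). The genes are those named in the comparisons, not all that passed.

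With the magnetic exposure, the D3 difference in the wild type was lower for HSPA6 (−1.35), BMF (−1.10), SOCS3 (−1.10), BHLHE40 (−0.84), GADD45B (−0.82), CCN1 (−0.79), NR4A1 (−0.53) and PIK3IP1 (−0.49). It was higher for BTG2 (0.89), CDKN2D (0.88), KHDC4 (0.68), CHORDC1 (0.66), THAP5 (0.63) and TMEM170A (0.52). For BMF the value was −0.76 with a pseudocount of 0.1 and 0.39 with voom weights on recovered reads, and neither passed. That of HSPA6, with voom weights, was −0.86 and did not pass. The values of CHORDC1 and THAP5 did not pass under several alternatives.

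In the RSRP1 knockout without exposure, the D3 difference was lower than in the wild type for LOC105371592 (−1.36), TRIB3 (−1.36), OLFML2A (−1.34), NR4A1 (−1.29), GACAT2 (−1.24), PIK3IP1 (−1.09), HDAC5 (−0.86), ACSS2 (−0.80), CDH1 (−0.58), RAB26 (−0.56), BMF (−0.50) and NCAPG (−0.33). It was higher for CA9 (2.52), PRG4 (1.89), LCN2 (1.53), SLPI (1.51), CES1 (1.37), CP (1.32), CPA4 (0.86), TNC (0.84), SFRP1 (0.78), FOSL1 (0.69), C3 (0.51), RNASE4 (0.49), SNHG12 (0.48), KIF20A (0.42) and BDKRB2 (0.38). The value of CES1, a liver-type carboxylesterase, was 0.66 with voom weights and did not pass. PRG4, which encodes the lubricant proteoglycan 4, went from 1.23 ± 0.13 to 7.38 ± 0.36 FPKM in the knockout (SD, n = 3).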

How the results depend on the processing

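The 5880 calls of D3 against no D3 in the unexposed wild type were 5133 to 5389 when a library was left out, and no alternative moved this count by more than 1.5 times. Of 4921 recomputed values of the 331 genes picked for naming, 4812 kept direction and side of the threshold, 92, in 24 genes, lost the call, 8 gained it and 9 changed sign. The sign changes were PRG4 (−0.043 under quantile normalization, −0.0054 without iR_WTA_D3_NE replicate 1, −0.025 without iR_WTA_NE replicate 1), SLPI (−0.044 without iR_WTA_NE replicate 3), ACAT2 (0.016 under quantile normalization) and FDPS (0.014 under median-of-ratios scaling, 0.089 under quantile normalization, 0.014 without iR_WTA_D3_NE replicate 2, 0.018 without iR_WTA_NE replicate 1). Leaving out 1 library at a time gave −0.025 to 0.058 for PRG4, −0.044 to 0.228 for SLPI and −0.034 to 0.018 for FDPS. The interaction of D3 and exposure moved most: its 202 genes became 52 with only the compared groups fitted, and 88 to 506 when a library was left out. It was 506 without iR_WTA_D3_EX replicate 2, 128 without iR_WTA_D3_EX replicate 1 and 101 without replicate 3, 117, 112 and 115 without iR_WTA_D3_NE replicates 1, 2 and 3, 92 and 108 without iR_WTA_EX replicates 2 and 3, and 88 without iR_WTA_NE replicate 2. Within it, BMF did not pass with a pseudocount of 0.1 (−0.76). It turned to 0.39 with voom weights, an alternative chosen after seeing the data. The BMF value thus depended on the scale at its low FPKM, and the cause of the changes in the count was not tested. In the unexposed wild type, same-numbered libraries did not deviate together (correlations of −0.023, −0.091 and −0.03), and no library correlated best with its own number. With the replicate number as a block, 5861 genes passed (2692 higher, 3169 lower), and the interaction with genotype gave 2146. At 34620432 reads or more per library, genes with 1 FPKM in fewer than 3 of the 30 libraries were not tested.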

Other observations

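Among all tested genes 22.3% rose and 26.3% fell, the background for each signalling list that follows. Of the Wnt ligands, receptors and feedback targets 12 rose and 2 fell of 29. WNT6, a secreted ligand under 1 FPKM in all 6 libraries (3 to 58 reads), was at 0.158, 0.143 and 0.0472 FPKM without D3 and 0.562, 0.915 and 0.672 FPKM with it (0.62 ± 0.12 SE, adjusted p = 0.00013). The receptor LRP5 (0.53), the feedback inhibitors NKD1 (0.50) and AXIN2 (0.31) and the secreted DKK3 (0.42) rose with it, opposite in sign to SFRP1. In the TGF-beta and BMP list 12 rose and 5 fell of 37: LTBP2, a matrix protein related to the latent TGF-beta binding proteins, rose by 0.60 and the ligand TGFB2 fell by 0.34. In the list of insulin-like growth factor genes 7 rose and 5 fell of 17. STC1 rose by 0.68 while its relative STC2 fell by 0.34, and the binding proteins IGFBP4 (0.51) and IGFBP7 (0.47) rose. Among EGF receptor genes 13 rose and 5 fell of 33, with LRIG1, which restrains the receptor, up by 0.55 and the ligand NRG1 down by 0.43. In the JAK-STAT list 12 rose and 2 fell of 26 and in the Notch list 5 rose and 0 fell of 15, where NOTCH3 rose by 0.40. In the YAP and Hippo list 9 rose and 9 fell of 34, near those shares.

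Of the Kruppel-like factors 5 rose and 2 fell of 12, with KLF13 (0.58), KLF9 (0.52) and KLF11 (0.51) higher and KLF6 (−0.33) and KLF4 (−0.32) lower. Of the clock genes 7 rose and 2 fell of 16: ARNTL, which encodes the activator BMAL1, was at 3.86, 3.63 and 3.98 FPKM without D3 and 5.86, 6.02 and 5.49 FPKM with it (0.49 ± 0.068 SE, adjusted p = 1.61e-06), the output factor DBP rose by 0.50 and the repressor CRY1 fell by 0.34. In the immediate early list 6 rose and 9 fell of 27, but 7 rose and 6 fell under quantile normalization. JUNB was at 13.5, 12.9 and 13.8 FPKM without D3 and 21.8, 21.6 and 21.5 FPKM with it (0.65 ± 0.11 SE, adjusted p = 3.54e-05) and JUN at 6.60, 5.99 and 6.58 FPKM without D3 and 4.30, 3.77 and 4.18 FPKM with it (−0.54 ± 0.088 SE, adjusted p = 1.6e-05), so the AP-1 subunits moved in opposite directions. Of the NRF2 targets 17 rose and 10 fell of 42, among them GSTM4 (0.58), PGD of the pentose phosphate pathway (0.43) and CBR3 (−0.55). In the mucin and secretory list 6 rose and 2 fell of 13. SPDEF, a factor of secretory cell fate, rose by 0.70 and AGR2, a disulfide isomerase of mucin-making cells, by 0.41, while MUC5AC fell by 0.38. Among secretory vesicle genes 9 rose and 4 fell of 34, near the share of all genes that rose and below the share that fell. The GTPases RAB37 (0.63) and RAB3D (0.57) rose while RAB27B fell (−0.63). In the BCL2 family 6 rose and 4 fell of 16, where BCL2L11, which encodes BIM, rose by 0.29 and BCL2L12 fell by 0.51. Among glucocorticoid receptor targets 9 rose and 1 fell of 21.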
